A study of Homo sapiens with 16 samples.

Results

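Protein folding in the endoplasmic reticulum (ER) and the unfolded protein response were followed here as a set of 47 genes through 4 tRNA conditions, by ribosome footprints and by total RNA. They were taken by gene symbol from the count tables: 46 of the 47 listed symbols had a row, and ERO1L was found under its current symbol, ERO1A, so that all 47 of the 26485 genes in the tables were covered. The cells were of the line MDA-MB-231, which was established from a human breast cancer without hormone receptors and which the labels call a xenograft cell line. The study addressed the translation of mRNAs with many isoleucine codons under a shifted pool of isoleucine tRNAs. The double modulation combined a CRISPR interference (CRISPRi) guide against tRNAIleGAU, which targets a repressor to that gene, with a construct that overexpresses tRNAIleUAU. The knockdown alone combined the tRNAIleGAU guide with the control construct, the construct alone combined a guide against eGFP, a gene that human cells lack, with the tRNAIleUAU construct, and the control combined the eGFP guide with the control construct. All 4 conditions grew in DMEM with serum and received no further treatment, and each was measured in 2 libraries per assay, which gave 16 libraries. The labels number the libraries but do not say that they came from separate cultures, nor whether a guide was carried by 1 clone, so the p-values rest on a spread between samples that may be purely technical.

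Secreted and membrane proteins enter the ER through the SEC61 channel, fold there with the help of chaperones, lectins and disulfide isomerases, and are pulled back to the cytosol for degradation when folding fails. When unfolded protein builds up, the membrane sensors IRE1 (gene ERN1), ATF6 and PERK act on it: IRE1 splices the mRNA of XBP1 into the form that encodes an active transcription factor, ATF6 is cut to release one, and PERK slows translation. XBP1 and ATF6 raise the genes for chaperones and degradation factors, and a secretory or tumour cell leans on that reserve.

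Among the letters by which these factors are known to find their genes is the ER stress response element (ERSE), searched here as CCAAT and CCACG with any 9 bases between them, on both strands of RefSeq promoters (GRCh38.p14, 250 bases before to 50 after each start, 45 members matched). It stood in 7 of the 45 members (15.6%) and in 25 of all 27305 genes with a promoter (0.0916%). The stretches around the element are shown for the 7 members that held it. Capitals mark the CCAAT and CCACG blocks, or CGTGG and ATTGG where the element lies on the other strand, and each line reads 5′ to 3′ along the gene's own strand.
HSPA5, chr9:125241371-125241429, minus strand: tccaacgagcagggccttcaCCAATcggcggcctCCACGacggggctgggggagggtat
HSP90B1, chr12:103930196-103930359, plus strand: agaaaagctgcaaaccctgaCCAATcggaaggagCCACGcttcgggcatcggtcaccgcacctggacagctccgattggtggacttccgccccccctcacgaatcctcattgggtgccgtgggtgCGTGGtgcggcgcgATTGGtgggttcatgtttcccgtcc
CALR, chr19:12938364-12938422, plus strand: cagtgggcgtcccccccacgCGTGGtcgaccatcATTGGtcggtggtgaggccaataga
CANX, chr5:179698758-179698816, plus strand: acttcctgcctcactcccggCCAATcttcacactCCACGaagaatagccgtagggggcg
PDIA6, chr2:10812833-10812891, minus strand: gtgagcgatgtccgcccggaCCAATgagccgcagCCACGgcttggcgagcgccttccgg
CRELD2, chr22:49918534-49918592, plus strand: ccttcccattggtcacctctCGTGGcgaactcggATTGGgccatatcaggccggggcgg
XBP1, chr22:28800583-28800641, minus strand: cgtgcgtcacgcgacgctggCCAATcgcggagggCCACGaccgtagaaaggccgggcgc

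HSP90B1 held the element in 2 places and the other 6 genes in 1. Another 2 sets of letters were searched the same way. The shorter element, ATTGG and CCACG with any 1 base between them, stood in 3 members (6.67% of 45, against 0.0696% of all promoters): HERPUD1, HYOU1 and SDF2L1, with 2 copies in HYOU1. The letters TGACGTGG stood in 5 members (11.1%, against 0.927%): DNAJC10, HYOU1, SSR3, TXNDC11 and TXNDC5. In HYOU1 one of these overlapped a copy of the shorter element. In all, 14 members held at least 1 of the 3. These matches describe letters within 300 bases and nothing about binding.

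Each footprint library held between 358340 and 938909 reads counted on genes, and each RNA library between 2512247 and 5446599. The members took 1.48 to 1.68% of the footprint counts and 1.41 to 1.54% of the RNA counts, so their summed share moved little. The 4 footprint libraries with the eGFP guide were the shallower ones (358340 to 607919 counts). Levels are given as CPM, the counts scaled to a library total of 1000000, which are not corrected for gene length and are compared between libraries, not between genes. Of the 47 members, 44 of 8143 genes could be tested in footprints, 46 of 11720 in total RNA and 43 of 8012 in the ratio of footprints to RNA. SPCS2, TXNDC11 and ERN1 were too thin in footprints and TXNDC5 in RNA. The line's markers VIM, CD44, AXL and EGFR were present (333.5 CPM or more in every library). Its markers MET, CAV1, S100A4 and LGALS1 were present too, with lowest values of 248.7, 231.8, 32.04 and 44.06 CPM. ESR1, PGR, CDH1 and KRT20 stayed at or under 2.36 CPM and the plasma cell genes MZB1 and JCHAIN had no count. Other genes expected at or near 0 were not all absent. GATA3 had 3.28 to 6.32 RNA and 4.935 to 13.95 footprint CPM, and ERBB3 3.98 to 9.73 and 1.71 to 9.59. The immune marker CD68 had 6.81 to 31.8 RNA and 125 to 171.5 footprint CPM, while PTPRC stayed at or under 1.65 CPM. The endothelial marker PECAM1 had 3.78 to 10.2 RNA and 0 to 8.245 footprint CPM. The fibroblast marker COL1A1 had 2.79 to 10.6 RNA and 6.58 to 15.6 footprint CPM. CDH5, VWF, COL1A2, COL3A1 and DCN stayed at or under 4.71 CPM. SEC11C, listed with the plasma cell genes, had 5.875 to 11.3 RNA and 8.57 to 17.2 footprint CPM. The tRNA-Ile genes themselves have no row by name, so the knockdown and the overexpression were not analysed here. The guide and the cells that carried it coincide in the design and cannot be told apart.

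In the double modulation against control, PDIA4 and SEC61G footprints fell and those of no member rose. That is 2 of 44 members, where 1.94% of all tested genes were called (158 genes, with 44 or 0.54% higher and 114 or 1.4% lower; edgeR's quasi-likelihood test, adjusted p under 0.05). PDIA4, a disulfide isomerase that works in the chaperone complex of HSPA5, was 1.38-fold lower, and SEC61G, the gamma subunit of the translocation channel, was 1.64-fold lower. The other 42 lay between log2 -0.65 (EDEM1) and 0.56 (PDIA5). The members' median was -0.05 (-0.13 to 0.04 with 1 library left out), against 0.01 over all tested genes, and 21 members lay above 0 and 23 below it. An unadjusted p under 0.05 was reached by 4 members (9.09%), against 12% of all genes. DESeq2 called the same 2 members, where it called 0.639% of all tested genes (52 of 8143). In these bulk libraries, fewer cells expressing a gene and less RNA per cell cannot be told apart.

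**Figure D1:**
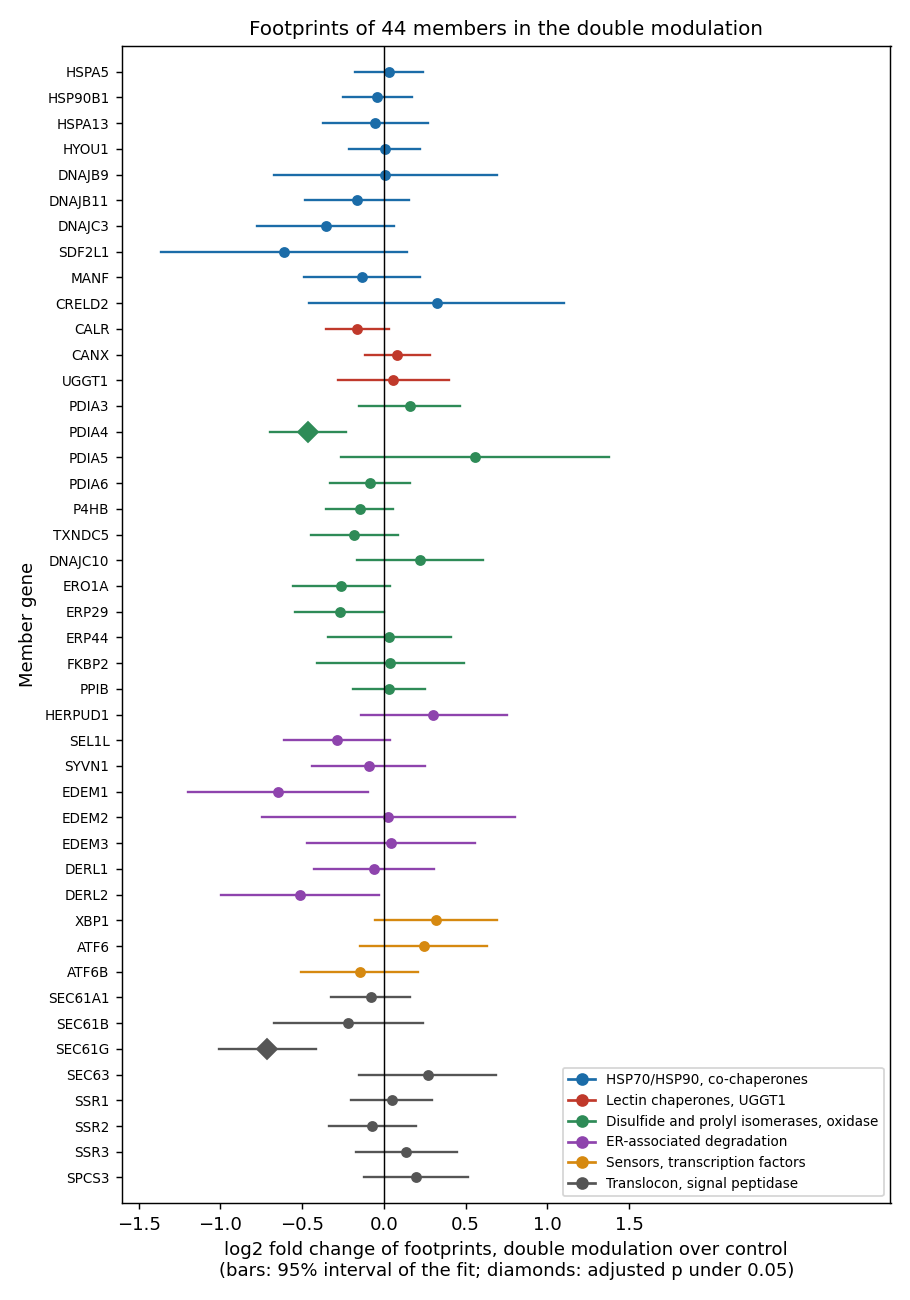
Log2 fold change of footprints in the double modulation over control for the 44 tested members, grouped by role, with 95% intervals of the fit; diamonds mark an adjusted p under 0.05. PDIA4 (-0.46) and SEC61G (-0.71) are the diamonds, and the intervals of the large chaperones are the narrow ones around 0.

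The intervals bound what could have been missed. For 27 of the 44 members the 95% interval of the footprint change lay within 1.5-fold in either direction, and for 39 within 2-fold. Both are larger shares than over all tested genes, where these were 30.4% and 72.4%. The knockdown alone against control called 0 members in footprints (1.11% of all genes were called, 90 of 8143). There 2 members, PDIA4 and ERP29, had an unadjusted p under 0.05 (4.55%, against 9.78% of all genes). The lowest adjusted p was 0.114 for PDIA4, and DESeq2 called 0 members (0.282% of all genes, 23 of 8143). The construct alone called 0 members as well (0.0246% of all genes called, 2 of 8143). There 0 members had an unadjusted p under 0.05, against 5.05% of all genes, and DESeq2 called 0 members (0% of all genes). The difference between the guides in the effect of the construct, the interaction, also called 0 (0.0614% of all genes called, 5 of 8143). An unadjusted p under 0.05 was reached by 0 members, against 5.83% of all genes, and DESeq2 called 0 members (0% of all genes).

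The sensors and transcription factors come first by role. XBP1, the factor that IRE1 activates by splicing, had 116 and 131 footprint CPM in the double modulation, 68.3 and 83.4 with the knockdown alone, 134 and 115 with the construct alone, and 112 and 82.5 in control. All 4 libraries with the tRNAIleUAU construct lay above all 4 without it, which held for 1 of the 44 members and for 1.58% of all tested genes, and the knockdown and control pairs overlapped. The double modulation differed from control by log2 0.32 ± 0.19 (SE; adjusted p = 0.529) and the knockdown alone by -0.37 ± 0.21 (adjusted p = 0.574), with an interaction of 0.36 ± 0.28 (adjusted p = 0.995). XBP1 RNA held 19.1 and 18.4 CPM in the double modulation, 16.4 and 14.3 with the knockdown alone, 20.9 and 18.6 with the construct alone, and 19.9 and 20.3 in control. A count per gene does not separate the spliced from the unspliced XBP1 mRNA.

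ATF6, the factor released from the ER membrane by cleavage, had 126 and 95.4 footprint CPM in the double modulation, 118 and 90.6 with the knockdown alone, 103 and 130.3 with the construct alone, and 115 and 72.6 in control. Its replicates differed more than its conditions did, and the double modulation stood at 0.24 ± 0.20 against control (adjusted p = 0.695). Its RNA was even, between 123 and 136 CPM in all 8 libraries. ATF6B, the related factor, had 100.1 and 133 footprint CPM in the double modulation, 137 and 152 with the knockdown alone, 128 and 122 with the construct alone, and 122 and 129 in control (double modulation -0.15 ± 0.18, adjusted p = 0.824). ERN1, which encodes the sensor IRE1 itself, was near the limit of these libraries. Its footprints came to 14.9 and 15.6 CPM in the double modulation, 11.8 and 10.9 with the knockdown alone, 5.58 and 6.86 with the construct alone, and 8.22 and 14.9 in control, and were not tested. In a footprint library 3 counts correspond to 3.2 to 8.37 CPM. ERN1 RNA held 7.16 and 6.81 CPM in the double modulation, 11.3 and 9.36 with the knockdown alone, 13.9 and 9.83 with the construct alone, and 8.36 and 4.32 in control. Its RNA interaction, -1.49 ± 0.50, was the largest in size among the 46 members tested in RNA and did not pass (adjusted p = 0.999).

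The chaperones of the HSP70 and HSP90 families and their helpers showed no called change in footprints in any of the 5 comparisons. HSPA5, the ER HSP70 known as BiP and the usual gauge of ER stress, had 1289 and 1122 footprint CPM in the double modulation, 1166 and 1072 with the knockdown alone, 1270 and 1155 with the construct alone, and 1202 and 1139 in control. All 4 conditions overlapped. Its difference in the double modulation was 0.03 ± 0.11 (adjusted p = 0.946), with a 95% interval from 0.883-fold to 1.18-fold. HSPA5 RNA held 1143 and 1237 CPM in the double modulation, 1114 and 1031 with the knockdown alone, 1382 and 1219 with the construct alone, and 1136 and 1140 in control. The construct alone had the highest mean in RNA (0.21 ± 0.11 against control, adjusted p = 0.999) but overlapped the double modulation. HSP90B1, the ER HSP90 known as GRP94, stood at -0.04 ± 0.11 in double modulation footprints, and HYOU1, a large HSP70 that exchanges the nucleotide of HSPA5, at 0.01 ± 0.11. SDF2L1, a partner of HSPA5 and its J-domain proteins, had the group's largest difference, -0.61 ± 0.38 (adjusted p = 0.557). It rested on few reads: SDF2L1 footprints were 17.0 and 21.9 CPM in the double modulation, 34.2 and 18.1 with the knockdown alone, 44.7 and 18.9 with the construct alone, and 29.6 and 28.1 in control. Both double modulation libraries lay under both control libraries, but the other pairs spread wider than that gap. DNAJC3, a J-domain protein that also inhibits PERK in the cytosol, had 69.2 and 68.8 footprint CPM in the double modulation, 94.2 and 91.8 with the knockdown alone, 61.4 and 65.1 with the construct alone, and 85.5 and 89.1 in control. Here the 4 libraries with the tRNAIleUAU construct lay below the 4 without it, again 1 of the 44 members, against 1.74% of all tested genes. The differences were -0.36 ± 0.21 in the double modulation (adjusted p = 0.529) and -0.46 ± 0.24 with the construct alone (adjusted p = 0.96), neither of which passed.

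The lectin chaperones bind sugar chains of new glycoproteins. CALR, the soluble lectin calreticulin, collected 2466 and 2259 footprint CPM in the double modulation, 2550 and 2466 with the knockdown alone, 2573 and 2616 with the construct alone, and 2736 and 2490 in control. The double modulation libraries were the 2 lowest save for a tie with knockdown replicate 2, at -0.16 ± 0.10 against control (adjusted p = 0.546), or 0.782-fold to 1.02-fold by the 95% interval. Its membrane-bound counterpart CANX stood at 0.08 ± 0.10 and UGGT1, which re-tags glycoproteins that are not yet folded, at 0.06 ± 0.17. None of the 3 passed in any comparison.

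Of the disulfide and prolyl isomerases and their oxidase, 12 of 13 were tested in footprints, and PDIA4 fell. PDIA4 had 493 and 483 footprint CPM in the double modulation, 532 and 511 with the knockdown alone, 709 and 602 with the construct alone, and 698 and 635 in control. All 4 libraries with the tRNAIleGAU guide lay under all 4 with the eGFP guide, and within a guide the constructs lay close together. Against control the double modulation stood at -0.46 ± 0.12 (adjusted p = 0.0118; lower in 2 of 2 libraries) and the knockdown alone at -0.36 ± 0.12 (adjusted p = 0.114). The call in the double modulation was lost without control replicate 1 (-0.40) or control replicate 2 (-0.53). It was also lost when a single random draw thinned all footprint libraries to the depth of the smallest (-0.32, adjusted p = 0.349). The draw was not repeated, so depth and the randomness of the draw cannot be told apart there. P4HB, the isomerase that is also a subunit of prolyl hydroxylase, had 1284 and 1173 footprint CPM in the double modulation, 1430 and 1396 with the knockdown alone, 1479 and 1401 with the construct alone, and 1423 and 1274 in control (double modulation -0.15 ± 0.10, adjusted p = 0.621). Its interaction of -0.29 ± 0.15 did not pass either (adjusted p = 0.869). PDIA5 had the most positive estimate of all members, 0.56 ± 0.42 (adjusted p = 0.657), from 28.8 and 18.8 CPM in the double modulation, 11.8 and 24.2 with the knockdown alone, 22.3 and 13.7 with the construct alone, and 23.0 and 9.90 in control, with overlap between every pair of conditions. ERO1A, the oxidase that recharges the isomerases, stood at -0.26 ± 0.15 in footprints (adjusted p = 0.506) and at -0.36 ± 0.10 in RNA (adjusted p = 0.311).

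Degradation factors pull misfolded proteins out of the ER. The 8 members tested had 0 called changes in footprints. SEL1L, the scaffold of the HRD1 ubiquitin ligase, had 148 and 145.5 footprint CPM in the double modulation, 186 and 151 with the knockdown alone, 162 and 171 with the construct alone, and 171 and 183 in control. The double modulation pair was the lowest, at -0.29 ± 0.16 (adjusted p = 0.5). SYVN1, the ligase HRD1 itself, had 126 and 131 footprint CPM in the double modulation, 143 and 137 with the knockdown alone, 162 and 159 with the construct alone, and 134.9 and 135.3 in control. All libraries of SYVN1 lay between 126 and 162 CPM, and the double modulation stood at -0.09 ± 0.18 against control. EDEM1, a mannosidase-like protein that hands glycoproteins to degradation, had 37.3 and 28.2 footprint CPM in the double modulation, 62.4 and 45.9 with the knockdown alone, 39.1 and 48.0 with the construct alone, and 51.0 and 52.8 in control. Both double modulation libraries lay under the other 6, and the difference of -0.65 ± 0.28 did not pass (adjusted p = 0.301). HERPUD1, a stress-induced component of the same ligase complex, is named here because of its values and not by the rule. Its RNA was 23.9 and 26.2 CPM in the double modulation, 16.4 and 16.9 with the knockdown alone, 14.7 and 14.7 with the construct alone, and 16.7 and 16.6 in control. The 2 double modulation libraries stood above the other 6. Neither the comparison with control (0.58 ± 0.19, adjusted p = 0.466) nor the interaction (0.74 ± 0.28, adjusted p = 0.999) passed in RNA. The share of all genes with a pair set apart in this way was not counted, here or for SEL1L and EDEM1. HERPUD1 footprints were 62.8 and 102 CPM in the double modulation, 56.5 and 67.7 with the knockdown alone, 50.2 and 56.6 with the construct alone, and 70.7 and 56.1 in control, with overlap. DERL2, a channel component of degradation likewise named for its values, had 66.0 and 28.2 footprint CPM in the double modulation, against 77.3 and 64.4 in control. Its difference of -0.51 ± 0.24 did not pass (adjusted p = 0.379), and only without double modulation replicate 1, the higher of that pair, was DERL2 called lower.

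The translocon members bring proteins in. SEC61G had 165 and 155 footprint CPM in the double modulation, 246 and 202 with the knockdown alone, 226 and 201 with the construct alone, and 258 and 262 in control. The double modulation pair lay under all other libraries and the control pair above them, with the single changes between. The share of all genes with such an order was not counted. The double modulation stood at -0.71 ± 0.15 (adjusted p = 0.00136; lower in 2 of 2 libraries), the knockdown alone at -0.23 ± 0.14 (adjusted p = 0.64) and the construct alone at -0.31 ± 0.16 (adjusted p = 0.96). The interaction was -0.18 ± 0.22 (adjusted p = 0.995), so a departure from the sum of both single changes was not called. Without control replicate 2 the call was lost (-0.70, adjusted p = 0.0688). One pseudogene of SEC61G is annotated, so reads that align to both are not counted. SEC61A1, the pore itself, had 487 and 443 footprint CPM in the double modulation, 509 and 447 with the knockdown alone, 589 and 468 with the construct alone, and 494 and 480.2 in control (double modulation -0.08 ± 0.12, adjusted p = 0.871). SEC61B, the beta subunit, had 73.5 and 45.4 footprint CPM in the double modulation, 77.7 and 91.8 with the knockdown alone, 61.4 and 56.6 with the construct alone, and 60.9 and 80.9 in control (double modulation -0.22 ± 0.23, adjusted p = 0.795). The 3 channel subunits therefore had estimates of -0.71, -0.08 and -0.22, and the difference between them was not tested.

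**Figure D2:**
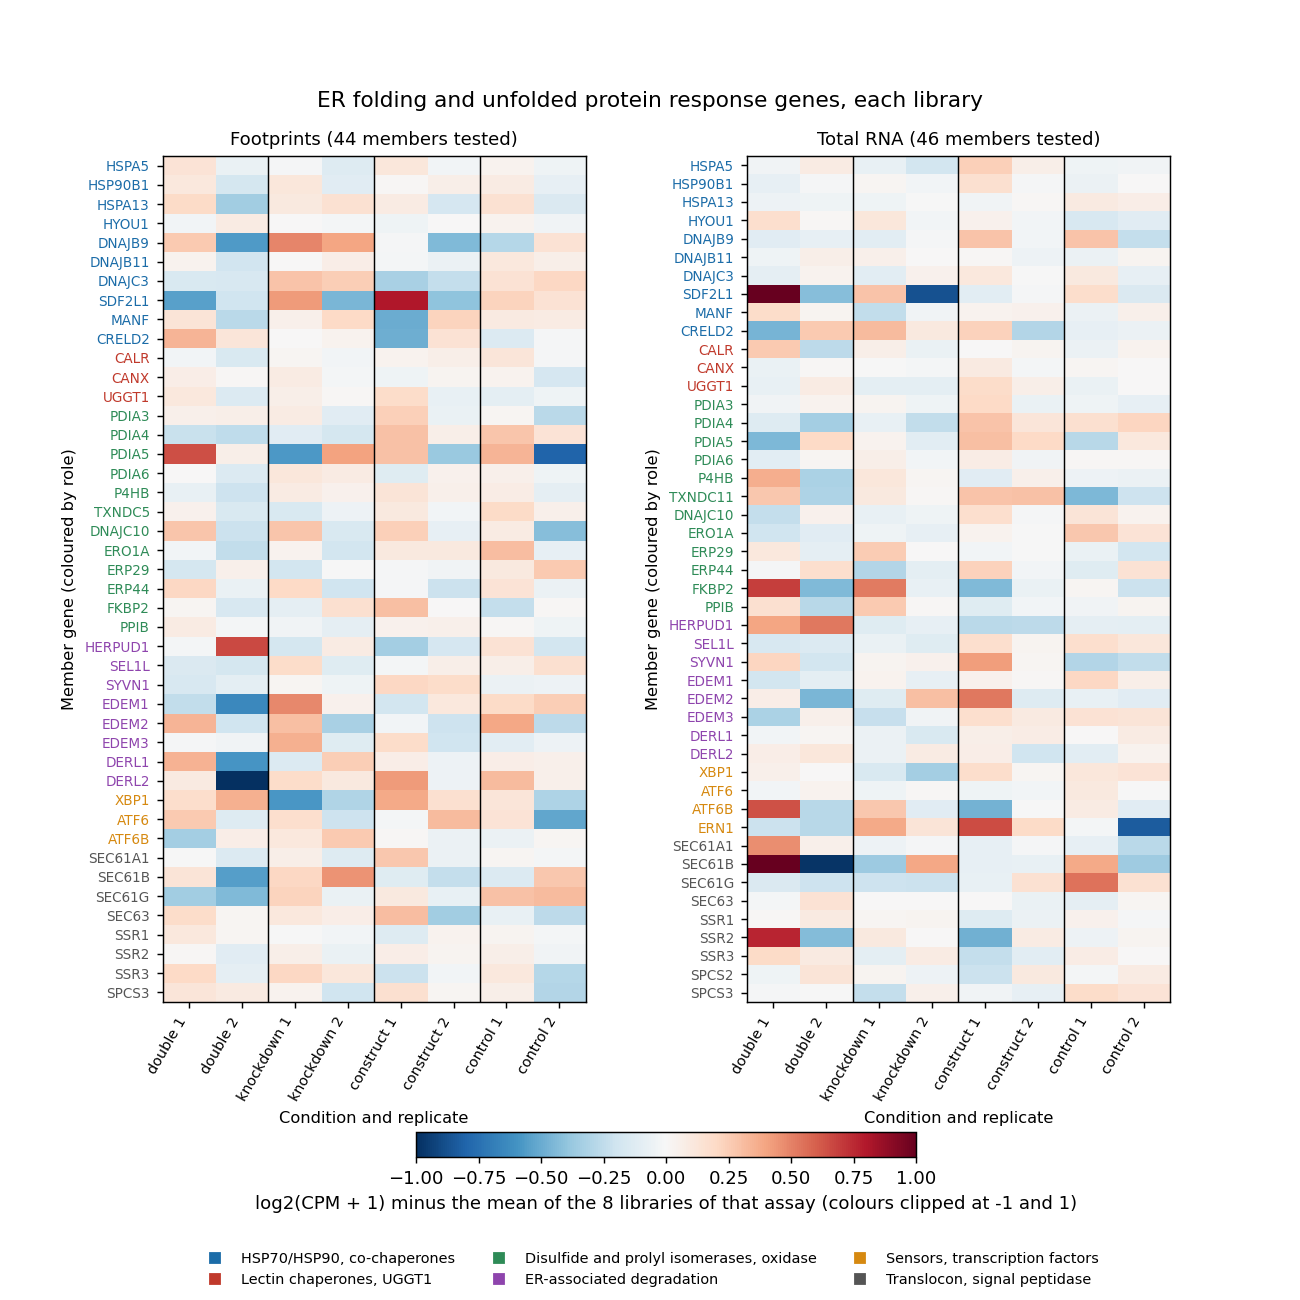
Log2(CPM + 1) of each tested member in each library, minus its mean over the 8 libraries of the assay, for footprints (left, 44 members) and total RNA (right, 46 members). PDIA4 is below its mean in the 4 libraries with the tRNAIleGAU guide in both assays, and the first RNA library of the double modulation stands apart from the second for SEC61B, SDF2L1, SSR2, FKBP2 and ATF6B.

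PDIA4 and SEC61G share a chromosome. Both lie on chromosome 7 of GRCh38.p14, PDIA4 at chr7:149003051-149028505 and SEC61G at chr7:54752253-54759211, as does another member, DNAJB9 (chr7:108569874-108574850). In double modulation footprints the median of the 374 tested genes of that chromosome was -0.40, with 332 of them below 0 and 44 called lower. Of these 374 genes, 149 had a lower estimate than PDIA4 and 79 a lower one than SEC61G. The 41 members on other chromosomes had a median of -0.04 and 0 called changes, and the genes off chromosome 7 a median of 0.02. In a fit without chromosome 7, 1.26% of all genes were called (98 of 7769) and 0 of the 41 members. With so small a share, 0 of 41 does not set the members apart from other genes. With the knockdown alone the median of the 374 genes was -0.39, with 329 below 0 and 32 called lower, and between the guides it was -0.39, with 345 below 0 and 84 called lower. The construct alone left these genes at a median of -0.01, with 192 below 0 and 0 called lower. Leaving its genes out of the scaling kept both calls in the double modulation.

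DNAJB9, a J-domain protein that holds IRE1 off through HSPA5, did not follow the chromosome in footprints. Its footprints were 34.1 and 18.8 CPM in the double modulation, 40.1 and 37.5 with the knockdown alone, 27.9 and 20.6 with the construct alone, and 23.0 and 31.4 in control. The 2 knockdown libraries were the highest, and the share of all genes with such a pair was not counted. With both constructs pooled, the guide difference was 0.36 ± 0.25 (adjusted p = 0.569), and 369 of the 374 chromosome 7 genes had a lower estimate. In RNA DNAJB9 stood at -0.18 ± 0.17 (adjusted p = 0.763). Its guide difference in the ratio of footprints to RNA, 0.53 ± 0.31, did not pass (adjusted p = 0.865).

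**Figure D3:**
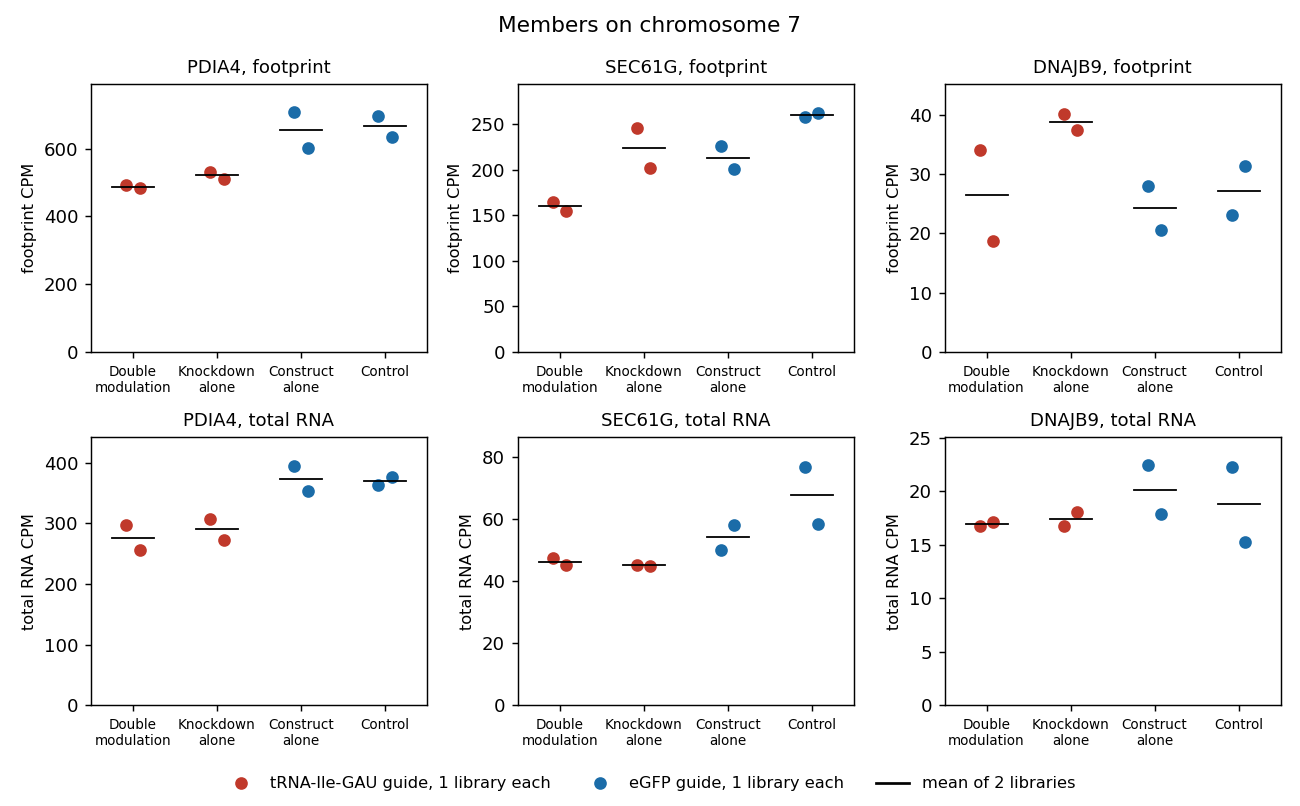
CPM of the 3 members on chromosome 7 in each footprint library (top) and total RNA library (bottom), by condition, with the mean of 2 libraries as a line. In PDIA4 the tRNAIleGAU guide libraries (483 to 532 footprint CPM) lie below the eGFP guide libraries (602 to 709), in SEC61G RNA likewise (45.0 to 47.4 against 49.9 to 76.8), and in DNAJB9 they overlap.

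Pooling both constructs set the 4 tRNAIleGAU guide libraries against the 4 eGFP guide libraries. In footprints PDIA4 fell again, to 505 ± 21.6 CPM against 661 ± 51.0 CPM (SD, n = 4 each; log2 -0.39 ± 0.08, adjusted p = 0.000714), and held without any 1 footprint library. It was 1 of 44 members, where 2.66% of all genes were called (217 of 8143; 0.688% higher and 1.98% lower). SEC61G stood at -0.32 ± 0.11 (adjusted p = 0.103), and passed only in the single random draw that thinned the libraries to the shallowest. Counted by overlap alone, 1 of the 44 members had all 4 guide libraries lower (3.94% of all genes) and 0 had all 4 higher (3.28% of all genes).

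Total RNA called 0 members by edgeR in any of the 5 comparisons. All-gene calls there were 0.0683% in the double modulation, 0.0256% with the knockdown alone, 0% with the construct alone, 0% in the interaction and 1.08% between the guides, and DESeq2 called 1 member, PDIA4, between the guides (1.35% of all genes). With no filter on low counts edgeR called 2 members between the guides, PDIA4 and SEC61G (2.64% of all genes). Unadjusted p-values under 0.05 were reached by 8 members in the double modulation (17.4%, against 7.61% of all genes), 5 with the knockdown alone (10.9%, against 6.94%), 1 with the construct alone (2.17%, against 1.99%), 3 in the interaction (6.52%, against 2.66%) and 7 between the guides (15.2%, against 10.5%). PDIA4 RNA held 297 and 256 CPM in the double modulation, 308 and 273 with the knockdown alone, 395 and 353 with the construct alone, and 363 and 377 in control. As in footprints, the guides did not overlap (log2 -0.40 ± 0.08, adjusted p = 0.0536). SEC61G RNA held 47.4 and 45.2 CPM in the double modulation, 45.2 and 45.0 with the knockdown alone, 49.9 and 58.2 with the construct alone, and 76.8 and 58.5 in control, again without overlap between the guides (-0.41 ± 0.11, adjusted p = 0.136). Another 3 members had all 4 tRNAIleGAU guide libraries lower in RNA. ERO1A averaged 368 ± 16.9 CPM with the tRNAIleGAU guide and 430 ± 37.0 CPM with the eGFP guide (SD, n = 4 each; adjusted p = 0.24), SEL1L 304 ± 8.08 and 360 ± 16.8 CPM (adjusted p = 0.185), and EDEM3, another mannosidase of degradation, 214 ± 25.5 and 256 ± 5.57 CPM (adjusted p = 0.389). That makes 5 of 46 members lower without overlap (5.33% of all genes) and 0 higher (3.37% of all genes). The knockdown, the guide and the cells that carried it cannot be told apart in any of these.

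The 2 RNA libraries of the double modulation differed from each other, and this touches every RNA and ratio result of that condition. Replicate 1 stood above replicate 2 by log2 2.10 for SEC61B (11.7 and 2.02 CPM), 1.55 for SDF2L1 (8.45 and 2.27 CPM), 1.20 for SSR2 (69.95 and 30.02 CPM), 1.14 for FKBP2 (57.1 and 25.5 CPM), 0.92 for ATF6B (57.1 and 29.8 CPM) and 0.68 for P4HB (568 and 353 CPM). It stood below by 0.73 for CRELD2 and 0.65 for PDIA5. Across 43 members this difference ran with the ratio of footprints to RNA described further on (Pearson r = 0.64, Spearman rho = 0.66), as it did across all 8012 genes (0.60 and 0.63). That is a correlation across genes, which share both libraries and are not independent. In the other 3 RNA pairs r was between -0.21 and 0.19 across members, and between -0.39 and 0.26 across all genes. Without replicate 2, double modulation RNA called 14 of 46 members (15.8% of all genes were called): ATF6B, FKBP2, HYOU1, P4HB, SEC61A1, SEC61B and SSR2 rose and DNAJC10, EDEM1, EDEM3, ERO1A, PDIA4, SEC61G and SEL1L fell. Without replicate 1 it called 1, PDIA4, which fell (adjusted p = 0.00909; 2.51% of all genes). Between the guides, RNA called 12 members without replicate 2 (15.5% of all genes) and 3 without replicate 1, PDIA4, SEC61G and SEL1L, all lower (4.67% of all genes). PDIA4 fell in all 4 of these fits.

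**Figure D4:**
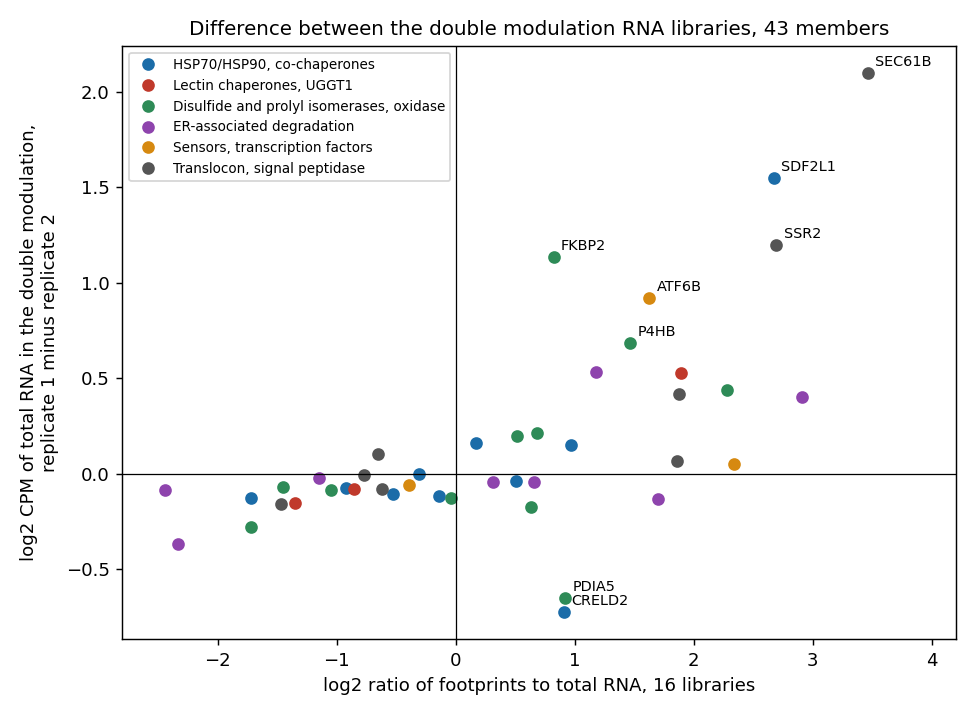
Difference in log2 CPM of total RNA between replicates 1 and 2 of the double modulation (vertical) against the log2 ratio of footprints to RNA over 16 libraries (horizontal) for 43 members, coloured by role. Members with a high ratio lie high, with SEC61B at 2.10, and CRELD2 and PDIA5 are the lowest.

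The ratio of footprints to RNA asks whether ribosome occupancy moved apart from the mRNA. It called 0 of 43 members in each of the 5 comparisons, and 0 of 8012 genes (0% called), by edgeR and by DESeq2. Unadjusted p-values under 0.05 were reached by 2 members in the double modulation (4.65%, against 4.14% of all genes), 1 with the knockdown alone (2.33%, against 3.27%), 1 with the construct alone (2.33%, against 2.75%), 0 in the interaction (against 2.55%) and 2 between the guides (4.65%, against 4.68%). PDIA4 had 1.77 footprint CPM per RNA CPM in the double modulation, 1.80 with the knockdown alone, 1.75 with the construct alone and 1.80 in control, so its footprints and its RNA were lower by like amounts (difference in ratio between the guides 0.01 ± 0.12, 95% interval 0.845-fold to 1.20-fold). SEC61G had 3.46, 4.97, 3.95 and 3.85 in the same order, and the double modulation stood at -0.16 ± 0.22 (95% interval 0.651-fold to 1.23-fold). HSPA5 had 1.01, 1.04, 0.932 and 1.03, and its interval in the double modulation ran from 0.770-fold to 1.25-fold. The smallest adjusted p of any member was 0.949 in the double modulation and 0.865 between the guides. For 17 of 43 members the interval of the double modulation lay within 1.5-fold (13.6% of all genes), and for 31 within 2-fold (50.7%). Without RNA replicate 2 of the double modulation, the ratio called P4HB, SEC61A1, SEC61B and SSR2 lower in the double modulation (4 of 43; 7.64% of all genes were called), and SEC61A1 and SSR2 lower between the guides (2 of 43; 5.43%).

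Taken over all conditions, the ratio differed widely between members. The mean over the 16 libraries was called different from 0 for 42 of 43 members, 24 above and 18 below, where 86.8% of all genes were called (42.5% above and 44.3% below). PDIA6 was the exception. The members' median was 0.51, against -0.04 over all genes, and their SD was 1.5, against 1.61. Of the 43, 13 lay above the upper quartile of all genes and 9 below the lower quartile. The zero of this scale is set by the scaling of both assays, so a value says only where a gene stands among the others.

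**Figure D5:**
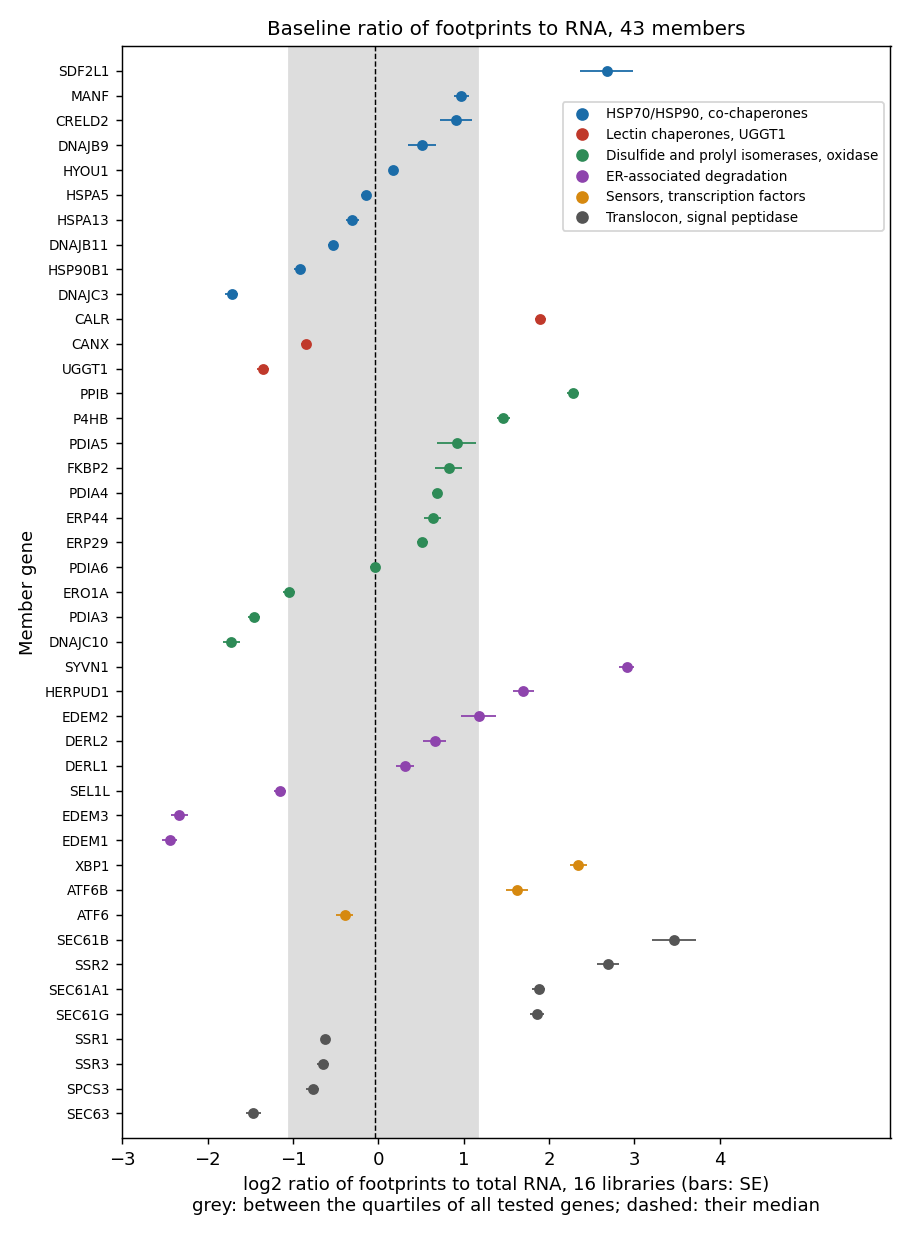
Log2 ratio of footprints to total RNA over all 16 libraries for 43 members, ordered within each role, with SE; the grey band runs between the quartiles of all 8012 genes and the dashed line their median. SEC61B is highest at 3.46, EDEM1 lowest at -2.44, and each larger role group spans both sides.

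SEC61B had the highest ratio, 3.46 ± 0.26. SYVN1 followed at 2.91 ± 0.09, SSR2, a subunit of the translocon-associated complex, at 2.70 ± 0.13, SDF2L1 at 2.67 ± 0.31 and XBP1 at 2.34 ± 0.10. SYVN1 RNA was 19.7 and 14.6 CPM in the double modulation, 17.1 and 17.3 with the knockdown alone, 22.8 and 17.1 with the construct alone, and 13.5 and 14.0 in control, against footprints near 140 CPM given above. The RNA of SEC61B and SDF2L1 was thin, at 2.02 to 11.7 and 1.41 to 8.45 CPM over the 8 libraries, and theirs were the largest SE of the 43. The neighbours SYVN1, SSR2 and SDF2L1 in this order differed by less than the sum of their SE.

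At the low end stood EDEM1 at -2.44 ± 0.09 (0.184-fold on the scale of the fit), EDEM3 at -2.33 ± 0.10, DNAJC10, a J-domain protein with thioredoxin folds that reduces disulfides before degradation, at -1.72 ± 0.10, DNAJC3 at -1.72 ± 0.07 and SEC63, the J-domain partner of the SEC61 channel, at -1.46 ± 0.09. EDEM3 footprints were 51.1 and 50.05 CPM in the double modulation, 66.0 and 47.1 with the knockdown alone, 58.6 and 44.6 with the construct alone, and 47.7 and 49.5 in control. Its RNA was 187 and 242, 199 and 229, 262 and 249, and 258 and 256 CPM in the same order. So 3 of the 8 degradation members, SEL1L among them at -1.15, lay below the lower quartile of all genes while SYVN1, the ligase that SEL1L holds, lay near the top. Within the SEC61 channel all 3 subunits were high (3.46, 1.88 and 1.86), while SSR1, SSR3, SPCS3 and SEC63 were below 0.

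The ratio ran with the length of the gene on the genome: across 43 members r was -0.63 and rho -0.65 against log2 gene span, and across all 8012 genes -0.49 and -0.49. SDF2L1 spans 1.998 kb and SEC61B 8.33 kb, whereas DNAJC3 spans 118 kb and SEC63 90.5 kb; PDIA5, at 95.1 kb and a ratio of 0.92 ± 0.23, went against the trend. These are descriptions across genes that share the same libraries. Of uniquely placed reads, 62.2 to 65.0% in total RNA and 24.9 to 32.6% in footprints were counted on no feature. The counting settings are not given, so whether these reads lay inside or outside genes is not known. Their part in the ratio was not tested. The share of each mRNA that is coding also enters the ratio and was not tested.

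The members that carry the ERSE can be set beside the others, with no test of the difference. In double modulation footprints 0 of the 7 were called, where 1.94% of all tested genes were (158 of 8143). With so small a share, 0 of 7 does not set them apart. Their median was 0.03 and they ranged from -0.16 (CALR) to 0.32 (CRELD2). The 37 tested without it had a median of -0.06 and 2 called, the chromosome 7 genes PDIA4 and SEC61G. In RNA the same 7 had a median of -0.03, with 2 above 0, and ranged from -0.10 (XBP1) to 0.06 (HSPA5), while the 39 without it had a median of 0.04, with 23 above 0. Their median ratio of footprints to RNA was -0.04, against 0.51 for the 36 others.

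A pair of members was counted in 1 assay and hardly in the other. TXNDC5, a thioredoxin-like isomerase, had 261 to 331 footprint CPM in the 8 libraries but 0.702 to 2.57 RNA CPM. In RefSeq it overlaps the readthrough gene BLOC1S5-TXNDC5 and BMP6, and reads that fall on several genes are not counted. SPCS2, a subunit of signal peptidase, had 54.1 to 69.1 RNA CPM but 0 to 2.13 footprint CPM, and 4 pseudogenes carry its name. Whether overlap or copies set these values was not tested, and no ratio is given. Of the members, 8 have a named pseudogene (HSPA5, PDIA3, ERP29, XBP1, SEC61G, SEC63, SSR1 and SPCS2) and 27 overlap another annotated gene.

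Beyond the members, 75 other genes of the pathway were listed, of which 68 were tested in footprints. In double modulation footprints, where 1.94% of all tested genes were called (158 of 8143), 0 of the 68 rose and 1 fell. That was CREB3L2, a membrane-bound transcription factor of the ATF6 kind. It had 83.1 and 75.1 CPM in the double modulation, 93.05 and 94.24 with the knockdown alone, 131 and 103 with the construct alone, and 145 and 144 in control (-0.87 ± 0.19, adjusted p = 0.00168). Like PDIA4 and SEC61G, it lies on chromosome 7. With the knockdown alone DNAJC1, a J-domain protein of the ER membrane, rose (0.68 ± 0.18, adjusted p = 0.0214), as did MAGT1, a subunit of oligosaccharyltransferase (0.55 ± 0.15, adjusted p = 0.038). That is 2 of the 68, where 1.11% of all genes were called (90 of 8143). DNAJC1 footprints were 158 and 152 CPM in the double modulation, 164 and 176 with the knockdown alone, 126 and 134 with the construct alone, and 90.5 and 120.5 in control, and DNAJC1, on chromosome 10, was also higher between the guides in footprints (0.46 ± 0.13, adjusted p = 0.0202) and in RNA (0.63 ± 0.11, adjusted p = 0.0316). In RNA between the guides CREB3L2 (-0.58 ± 0.08, adjusted p = 0.0139) and FKBP9, a prolyl isomerase on chromosome 7 (-0.74 ± 0.09, adjusted p = 0.0121), fell. Between the guides, 1 of the 68 rose and 1 fell in footprints, where 2.66% of all genes were called (217 of 8143). Of the 73 tested in RNA, 1 rose and 2 fell between the guides, where 1.08% of all genes were called (126 of 11720). Of the PERK branch, the 2 genes tested in footprints and the 5 tested in RNA had 0 called changes. ATF4, which PERK signalling raises by translation, stood at 0.44 ± 0.52 in double modulation footprints (adjusted p = 0.817). It rested on 2 to 14 footprint reads per library, near the limit of these libraries, so the value says little about a change.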

How the data were processed

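The tools named per the submitters' processing notes are cutadapt 1.17, STAR 2.5.2a and HTSeq, and the build is hg38. Settings, annotation and the HTSeq version are not given in the sources used here. The deposited values are raw counts of reads per gene symbol. A gene missing from a footprint file was given 0. HTSeq's summary lines were left out of the tests and library sizes; multiply aligned reads were 97.0 to 98.8% of everything listed in footprints and 97.2 to 98.1% in RNA.

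Low genes were removed with filterByExpr by group (a count of 10 and a total of 15 as minima), and libraries were scaled by TMM and tested with edgeR 4.0.16 in R 4.3.3 (quasi-likelihood, group means of 8 libraries, 4 residual degrees of freedom), with Benjamini-Hochberg adjustment over all tested genes and a threshold of 0.05. The ratio was the footprint contrast minus the RNA contrast in 1 fit of 16 libraries (8 residual degrees of freedom). The biological coefficient of variation was 6.71% in footprints, 14.3% in RNA and 12.5% over both. Errors beside log2 values are model standard errors and those beside CPM are SD. CPM divide by the library total; differences between libraries use log2 CPM with a prior count of 2.

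The members and lists were chosen with earlier results of these data known. Values are printed for members called anywhere, for those with the most footprints and the largest double modulation difference in each role, the 5 highest and 5 lowest ratios, the sensors, and the members on chromosome 7; others named are said to be chosen by their values, or illustrate a role. Alternatives were RLE scaling, no filter, DESeq2 1.42.0, a replicate block, footprint libraries thinned by a single random draw, chromosome 7 left out, and each library left out. Positions and promoters are RefSeq's, GRCh38.p14.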

Additional observations from a re-analysis of the deposited data

How the results depend on the processing

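Counts of called members moved under these settings. In double modulation footprints the 2 calls (PDIA4, SEC61G) became 1, SEC61G, in libraries thinned to 358340 counts, 0 with chromosome 7 left out of scaling and fit, where both are removed by construction (41 members), and 0 to 3 with 1 library left out: 1 without control replicate 1 (SEC61G; 0.66% of all genes called, against 1.94% with all libraries), 0 without control replicate 2 (0.406%), and 3 without double modulation replicate 1, where DERL2 also fell (1.55%). The thinned libraries called 1.1% of all genes in the double modulation (74 of 6701). Between the guides in footprints 1 became 2 in thinned libraries (1.69% of all genes, 113 of 6701). With 1 library left out, the guide difference of PDIA4 footprints ran from -0.46 to -0.34. Between the guides in RNA 0 became 2 with no filter on low counts (PDIA4, adjusted p = 0.00109, and SEC61G), 1 by DESeq2 (PDIA4, adjusted p = 0.00366) and 0 to 12 with 1 library left out. Double modulation RNA ran from 0 to 14 with 1 library left out, the ratio in the double modulation from 0 to 4 and between the guides from 0 to 2; every count above 0 came from leaving out a double modulation RNA library. The baseline ratio called 41 to 42. No called value changed sign, but most member medians of a comparison, all near 0, did with 1 library left out: in the double modulation they ran from -0.13 to 0.04 in footprints, -0.07 to 0.05 in RNA and -0.15 to 0.07 in the ratio, and with the knockdown alone from -0.05 to 0.08 in footprints, -0.05 to 0.10 in the ratio and -0.03 to -0.004 in RNA, where the median with all libraries was 0.01. These medians carry no direction. Replicates of the same number deviated with correlations of -0.05 to 0.06 in footprints. In RNA these were -0.57 between the construct alone and the double modulation, 0.47 between the knockdown alone and the double modulation, and -0.26 to 0.10 otherwise, so no pairing held across groups. With the replicate block, double modulation footprints again called 2 members (2.58% of all genes, 210 of 8143) and the guides 1 (3.27%, 266 of 8143). All other counts but the baseline ratio stayed at 0. In those comparisons 1.34% of all genes were called at most, in footprints with the knockdown alone. With 2 libraries per group, leaving one out assumes that the lone library varies like the other groups. Depth limited SDF2L1, CRELD2, PDIA5, EDEM2 and DNAJB9 in footprints and SEC61B, SDF2L1, ERN1 and EDEM2 in RNA, where 3 counts correspond to 0.551 to 1.19 CPM.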
